A study of Arabidopsis thaliana with 3 samples.

Results

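The clustered peaks of the MADS complex SEP3-AG(IAP1) are the bound regions of the Arabidopsis genome whose midpoint lies at most 2000 bp from the midpoint of another bound region on the same chromosome. Of 3552 peaks, 517 met this rule and the other 3035 did not. The 517 peaks formed 249 clusters, of which 231 held 2 peaks, 17 held 3 and 1 held 4. The rule used positions alone, so the closeness of these peaks is described below without a test, while their sequences and their places relative to genes were compared with those of the other peaks.

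The peaks come from sequential DAP-seq, in which a purified protein complex is incubated with naked, sheared genomic DNA and the bound fragments are sequenced. The complex, named SEP3-AG(API-I) in the sample labels, was produced by in vitro transcription and translation and held FLAG-tagged SEP3 and a Myc-tagged AG in which the I domain, the short segment that follows the DNA-binding domain, was replaced by that of AP1. Both tags were used in turn for purification, so that complexes with both proteins were kept. The DNA came from 2-week-old plants grown in long days, and input DNA was the control for peak calling. The 3 replicates were labelled as separate samples and had been combined into 1 list of regions of 400 bp, which holds no height, read count or p-value. No spread between replicates and no depth could therefore be computed from it, and every error given here is over regions. Naked DNA carries no nucleosomes and no other plant proteins, so the list shows where the complex can bind and not where it binds in a flower.

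MADS-domain transcription factors of the MIKC type bind DNA as dimers, and the sequence they recognise is the CArG box, a run of A and T between CC and GG. SEP3 is known to bring dimers together into tetramers, which can hold a pair of CArG boxes on 1 stretch of DNA and loop out the DNA between them. AG specifies stamens and carpels, AP1 specifies sepals and petals, and SEP3 is a partner of both. Several MADS genes are themselves targets of MADS complexes, and control regions with many CArG boxes are known from floral genes.

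The best sites in the clustered peaks near 6 MIKC MADS genes are shown first, because this family had the highest share of genes with a clustered peak among the lists examined below. A matrix of 16 bp was fitted to the peaks, leaving out the chromosome to which it was then applied, and each site has a score in bits, the log2 ratio of its likelihood under the matrix to that under the base composition of the peaks. Capitals mark the 10 bp of the box at the centre of the matrix, and all sequences are the forward strand of the RefSeq TAIR10.1 genome, whose nuclear chromosomes match the TAIR10 coordinates of the peaks. Distances run from the midpoint of the peak to the gene start.
SEP3, 1807 bp upstream, chr1:8597865-8597880, 6.37 bits: ataCTATATTTAGttt
SEP3, 2734 bp upstream, chr1:8598868-8598883, 13.80 bits: ttaCCCAAAATAGaaa
SOC1, 27 bp upstream, chr2:18811130-18811145, 14.08 bits: ttaCTTATTTTGGaaa
SOC1, 718 bp upstream, chr2:18811824-18811839, 10.26 bits: tatCCTTTTTTGGaga
SOC1, 1992 bp upstream, chr2:18813140-18813155, 8.38 bits: tttCCTCATATGTata
AGL14, 71 bp upstream, chr4:7142840-7142855, 10.05 bits: ttaCCAAAAGAAGaat
AGL14, intron, chr4:7144228-7144243, 11.51 bits: taaCCAGATTTAGaaa
AGL19, intron, chr4:12026608-12026623, 14.66 bits: tatCCAAATAAGGaaa
AGL19, 24 bp upstream, chr4:12028027-12028042, 12.36 bits: tttCTTCTTTTGGtaa
AGL16, exon outside the coding sequence, chr3:21177444-21177459, 9.31 bits: tttCCTTATGTGGctc
AGL16, exon outside the coding sequence, chr3:21178340-21178355, 10.79 bits: tttACTTTATTGGcaa
TT16, 2571 bp upstream, chr5:7833404-7833419, 15.43 bits: tttCCTAATTTAGaaa
TT16, 600 bp upstream, chr5:7835359-7835374, 14.10 bits: tttCCTTTTGTGGtaa
Of these 13 sites, 12 passed 7.79 bits, the threshold for a site throughout, which was set so that the genome holds on average 1 site in 2000 bp. The exception was the nearer SEP3 peak. A canonical box, CC followed by 6 bases that are each A or T and then GG, was present in 2 of the 13 peaks, 1 at SOC1 and 1 at AGL19.

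The sites of clusters in which both peaks matched the matrix well are shown next. Single clustered peaks elsewhere held sites as strong or stronger than some of these. Shown are, beside TT16 given above, the other clusters of 2 peaks among the 5 with the highest sum of best scores, and the cluster upstream of SPT, whose 3 peaks all held a strong site.
SPT, 5126 bp upstream, chr4:17408954-17408969, 15.51 bits: tttCCATTTATAGtaa
SPT, 4724 bp upstream, chr4:17409333-17409348, 16.04 bits: tttCCAATTTGGGaaa
peak of the SPT cluster nearest to AT4G36925, chr4:17408453-17408468, 14.26 bits: tttCCATATTTAGaat
AT5G57567, exon outside the coding sequence, chr5:23312847-23312862, 17.92 bits: tttCCATAAATGGaaa
AT5G57570, exon outside the coding sequence, chr5:23314351-23314366, 13.68 bits: atcCCATAAATGGaaa
AT3G14220, exon outside the coding sequence, chr3:4733030-4733045, 17.08 bits: tttCCAAAAATGGcaa
AT3G14220, 549 bp upstream, chr3:4732276-4732291, 13.91 bits: ttaCCACTAATGGtaa
SKU5, coding exon, chr4:7352158-7352173, 15.55 bits: tttCCATTTATAGcaa
SKU5, intron, chr4:7352532-7352547, 14.31 bits: ttaCCATTAATAGtaa
AT4G10530, 2024 bp upstream, chr4:6506551-6506566, 14.66 bits: tttCCCAAAAGGGaaa
AT4G10530, 647 bp upstream, chr4:6507924-6507939, 14.66 bits: tttCCCAAAAGGGaaa
SPT encodes a bHLH factor of carpel development, SKU5 a cell wall protein of directional root growth, AT4G10530 a subtilase and AT3G14220 a GDSL-like lipase. The boxes in the peaks at AT5G57567 and AT5G57570 were the same, and at AT4G10530 all 16 bp were.

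Within clusters, the distance between adjacent midpoints ranged from 211 to 1993 bp over 268 pairs, with quartiles of 522, 937.5 and 1455.25 bp. Of these pairs, 40 were under 400 bp apart, so that the regions of 400 bp overlapped, 101 were at least 400 but under 1000 bp apart and 127 were 1000 to 2000 bp apart. The overlapping pairs involved 80 peaks. The authors split bound regions with several maxima into separate peaks, and which of the peaks came from such a split is not recorded in the list. Clusters spanned a median of 954 bp and at most 4372 bp between their outer midpoints. The rule has a threshold, and values on both sides of it were close. The widest pair inside it lay 1993 bp apart and the closest pair outside it 2002 bp, and 18 peaks had their nearest neighbour at 1900 to 2000 bp against 26 at over 2000 and up to 2100 bp. The other peaks had their nearest neighbour at a median of 12497 bp.

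Clustered peaks were found on all 5 chromosomes. They made up 14.6% of all peaks (95% Wilson interval 13.4 to 15.8%, covering counting error over peaks only), with 135 of 936 on chromosome 1 (14.4%), 63 of 574 on chromosome 2 (10.98%), 108 of 677 on chromosome 3 (15.95%), 94 of 555 on chromosome 4 (16.9%) and 117 of 810 on chromosome 5 (14.4%). Chromosome 2 had the lowest share (interval 8.67 to 13.8%) and chromosome 4 the highest (14.05 to 20.3%). Peaks of 1 cluster meet the rule together, so these intervals over single peaks are too narrow. The chromosomes were not compared by a test.

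Independent placement of the same number of peaks on each chromosome would give fewer clustered peaks than were seen. With even placement, and counting distances above 200 bp only because none was smaller in the list, 10.2% of peaks or 361 would have a neighbour within 2000 bp, and the 517 seen were 1.43 times as many. When the placement followed the GC content of the peaks and their origin (promoter, exon, intron or intergenic), the expectation was 11.1% or 393 peaks, and the 517 seen were 1.31 times as many. A placement that also followed the best matrix score within 50 bp, a choice made after the data had been seen, gave 10.8% or 385 peaks and a ratio of 1.34. At a distance of 1000 bp, 7.83% of peaks had a neighbour against 4.65% with even placement, and at 5000 bp 31.25% against 24.9%. The excess was thus larger in proportion at the shorter distance.

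The same was seen in the distances of all pairs of peaks. Between 201 and 400 bp there were 41 pairs, 1.94 times the number from even placement (exact Poisson interval 1.39 to 2.63). The ratio was 1.61 (1.31 to 1.95) for the 102 pairs at 401 to 1000 bp and 1.26 (1.05 to 1.49) for the 133 pairs above 1000 and up to 2000 bp. Beyond the limit of the rule it was 1.21 (1.09 to 1.33) from there to 5000 bp and 1.11 (1.02 to 1.20) at 5001 to 10000 bp. There was no break in the ratio at 2000 bp, so the rule cuts a gradual decline. Placement following GC content and origin gave lower ratios for the 3 ranges up to 2000 bp. They were 1.58 (1.13 to 2.14), 1.44 (1.17 to 1.75) and 1.18 (0.989 to 1.400). The placement that also followed the matrix score gave 1.43 (1.03 to 1.94), 1.35 (1.10 to 1.64) and 1.14 (0.955 to 1.35). A pair is not independent of other pairs that share a peak, and the intervals cover counting error alone. The rule used these distances, so the intervals are no test of them.

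**Figure D1:**
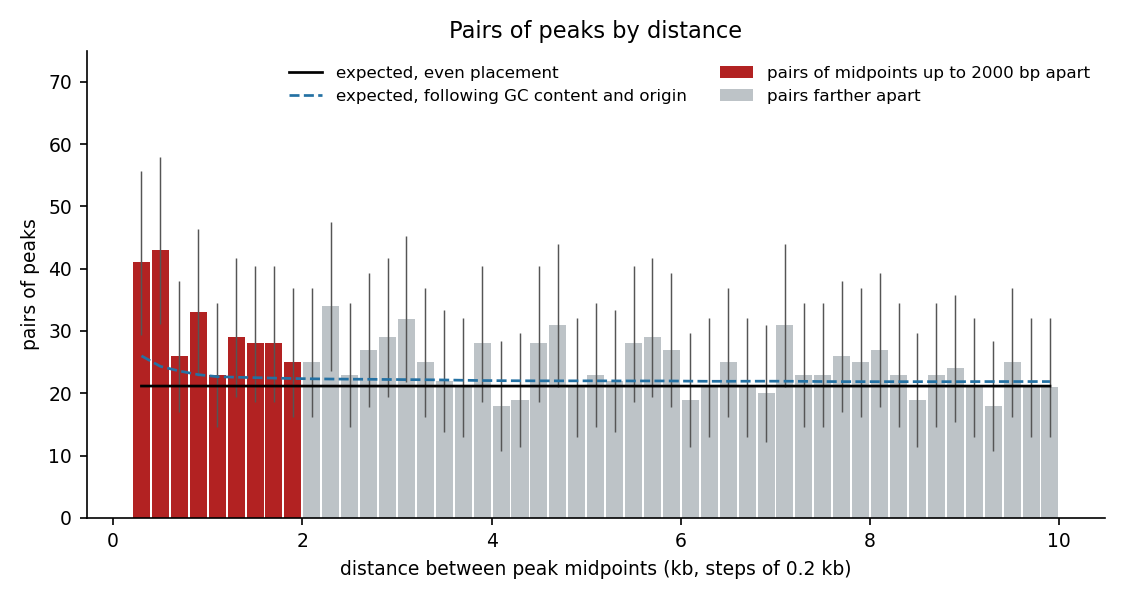
Number of pairs of peaks (vertical axis) by the distance between their midpoints in kb, in steps of 0.2 kb, with exact 95% Poisson intervals as thin lines. Red bars are pairs up to 2000 bp apart, grey bars are pairs farther apart, and the lines give the number from even placement (solid) and from placement following GC content and origin (dashed). The 41 and 43 pairs at 201 to 400 and 401 to 600 bp stand above both lines, and the bars approach them with distance.

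In CArG boxes, no difference between clustered and other peaks passed the test at the limit of 2000 bp, for how many peaks held one or for its strength. A canonical box was found in 85 of the 517 clustered peaks (16.4%) and in 482 of the 3035 other peaks (15.9%), a difference of 0.56 percentage points (95% interval -2.92 to 4.04, adjusted p = 0.839, n = 517 and n = 3035). For scale, 2.50% of 297255 regions of 400 bp across the genome hold such a box. A near-canonical box, with at most 1 base that departs from the canonical form, was found in 82.2% of clustered and 79.6% of other peaks (difference 2.63 points, interval -1.14 to 6.41, adjusted p = 0.548, n = 517 and n = 3035), and in 40.2% of the regions across the genome. With a neighbour limit of 5000 bp in place of the n = 517 clustered peaks at 2000 bp, this difference was 4.13 points (adjusted p = 0.044). The tests here and below are a linear model with errors robust to membership of a cluster, adjusted by the Benjamini-Hochberg method over 10 measures.

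The best site of a peak scored 10.73 ± 2.80 bits in clustered peaks (SD, n = 517) and 10.70 ± 2.76 bits in other peaks (SD, n = 3035), a difference of 0.03 bits (interval -0.24 to 0.30, adjusted p = 0.839). The lowest score in a clustered peak was 3.50 bits, the median 10.64 and the highest 17.92, and the median of other peaks was 10.69. Peaks held 1.21 sites each when clustered and 1.22 otherwise (adjusted p = 0.839, n = 517 and n = 3035). No site passed the threshold in 80 clustered peaks (15.5%) and in 463 other peaks (15.3%), 1 site did in 54.9% and 54.1%, 2 did in 23.6% and 25.1%, and 3 or more did in 5.996% and 5.57%. The best site lay within 25 bp of the centre in 68.5% of clustered and 68.4% of other peaks.

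The share of clustered peaks was also taken by score. Of the 444 peaks whose best site reached 14 bits, 81 were clustered (18.2%, interval 14.9 to 22.1%), against 97 of the 747 peaks at 12 to 14 bits (12.99%, interval 10.8 to 15.6%). At lower scores the share was 13.95% at 10 to 12 bits, 14.1% at 8 to 10 bits and 15.7% at 6 to 8 bits. These bins were not tested, and the intervals of the 2 highest overlap.

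GC content was the measure that differed. Clustered peaks had 31.7% ± 5.06 GC (SD, n = 517) and other peaks 32.6% ± 5.09 (SD, n = 3035), a difference of -0.911 percentage points (SE 0.268, interval -1.44 to -0.386, adjusted p = 0.0068). The difference is small beside the spread between peaks. With the origin of the peak as a covariate, an alternative chosen after the data had been seen, it was -0.747 points (p = 0.00129, not adjusted, n = 517 and n = 3035). It missed the threshold of 0.05 without chromosome 2 (-0.794 points, adjusted p = 0.0608), with a neighbour limit of 5000 bp (-0.489 points, adjusted p = 0.0668) and without chromosome 5 (-0.858 points, adjusted p = 0.0604), where the main fit had n = 517 and n = 3035.

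**Figure D2:**
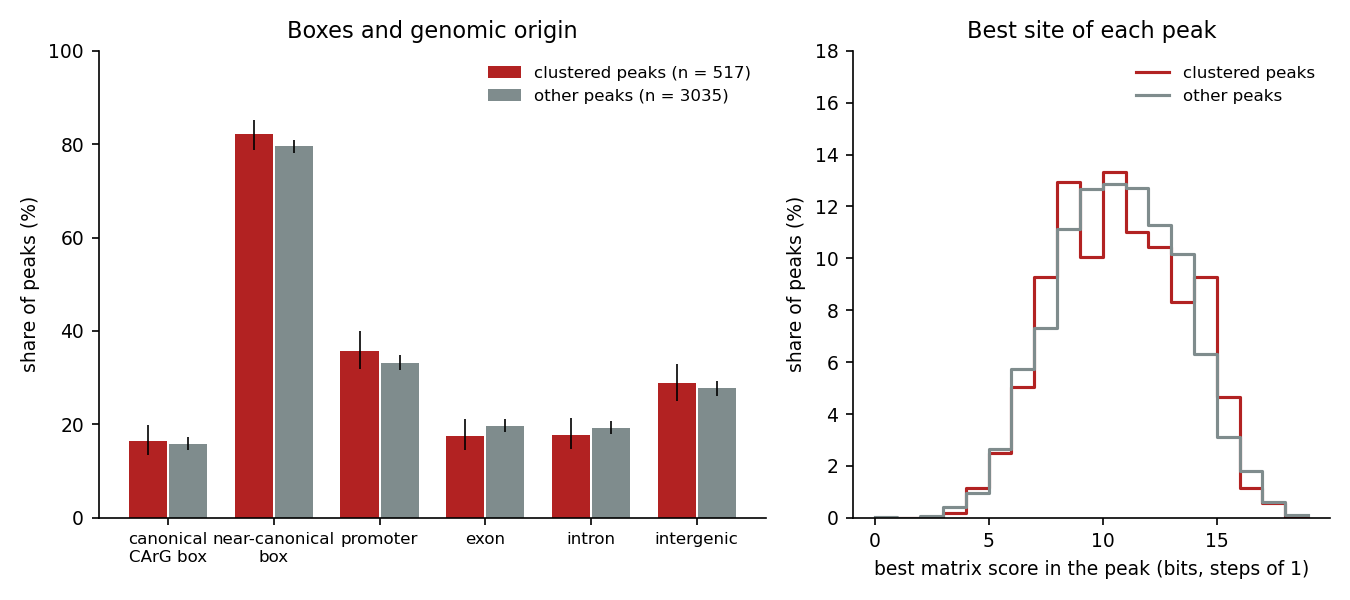
Left, share of peaks (%) with a canonical or near-canonical CArG box and in each genomic origin, for clustered peaks (red) and other peaks (grey), with 95% Wilson intervals. Right, share of peaks (%) by best matrix score in steps of 1 bit. The bars of the 2 groups lie within a few points of each other, and both score profiles peak between 8 and 12 bits.

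By origin, no difference between clustered and other peaks passed the test at the limit of 2000 bp, and promoters held the most of both. The midpoint lay within 1000 bp upstream of a gene for 185 clustered peaks (35.8%) and 33.2% of other peaks (difference 2.57 points, interval -2.04 to 7.18, adjusted p = 0.548, n = 517 and n = 3035). It lay in an exon for 17.6% and 19.7%, in an intron for 17.8% and 19.3%, and in intergenic DNA for 28.8% and 27.7%, with adjusted p of 0.548, 0.725 and 0.839 (n = 517 and n = 3035). The intron difference was -1.51 points here, and with a neighbour limit of 1000 bp, in place of the n = 517 clustered peaks, it was -6.66 points (adjusted p = 0.0178). Relative to the nearest gene start, 94 clustered peaks (18.2%) lay over 1000 and up to 3000 bp upstream and 65 (12.6%) lay over 500 and up to 1000 bp upstream, against 14.3% and 9.16% of other peaks. Within 500 bp upstream the shares were 21.5% and 21.7%, more than 3000 bp upstream 4.45% and 6.72%, and downstream of the start 43.3% and 48.1%. These positions were not tested apart from the promoter share, which reached adjusted p = 0.033 (difference 7.28 points, n = 517 and n = 3035) when promoters were taken as 2000 bp. Midpoints in annotated pseudogenes were found for 2 clustered peaks (0.387%) and 48 other peaks (1.58%).

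Sites in the DNA around each peak were also counted, leaving out all DNA inside peaks. By the rule a clustered peak has a neighbour in this range, and the sites of that neighbour are left out. The count therefore cannot decide whether clustered peaks lie in DNA rich in matching sequence. Within 2000 bp, and outside all peaks, clustered peaks had 0.542 sites per kb and other peaks 0.504 (difference 0.038, interval -0.013 to 0.088, adjusted p = 0.548, n = 517 and n = 3035).

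The pairs were then placed relative to genes. Of the 268 adjacent pairs, 199 (74.3%) shared the nearest gene start, 194 (72.4%) had no gene start between them, and 46 lay within 1 gene. Peaks this close often share a nearest start by their distance alone, and no expectation for this was computed. A shared gene start was found in 39 of 40 pairs under 400 bp, in 78 of 101 pairs from 400 to under 1000 bp and 82 of 127 at 1000 to 2000 bp. Of the 199 pairs with a shared start, 84 had both peaks upstream of it, 61 had both downstream and 54 had 1 on either side. The remaining pairs include divergent or neighbouring genes, such as the peaks at AT5G57567 and AT5G57570. Both peaks were intergenic in 48 pairs, in promoters in 40, in introns in 13 and in exons in 13, and the origins differed in 154.

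In most pairs both peaks held a site, but most single peaks held one too, 437 of 517 clustered and 2572 of 3035 other peaks. This was so in 192 of the 268 pairs, while 69 had a site in 1 peak and 7 in neither. A canonical box was present in both peaks of 8 pairs, in 1 peak of 72 and in neither of 188, while 85 of the 517 clustered peaks held one. No expectation for pairs was computed, so these counts are not read as a property of pairs. In no pair was the best site of both peaks the same stretch of DNA, and the best sites lay 108 to 2111 bp apart with a median of 939.5 bp. The higher-scoring peak of a pair had a median of 12.51 bits and the lower-scoring 8.88 bits, a gap that follows from sorting each pair by score. Among the 228 pairs that did not overlap, the scores of left and right peak were barely related (Pearson r = 0.05, Spearman rho = 0.04 across pairs, given as a description). Pairs under 400 bp more often had a site in 1 peak only, with 24 of 40 (60%) holding a site in both, against 74 of 101 (73.3%) and 94 of 127 (74.0%) in the wider ranges.

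**Figure D3:**
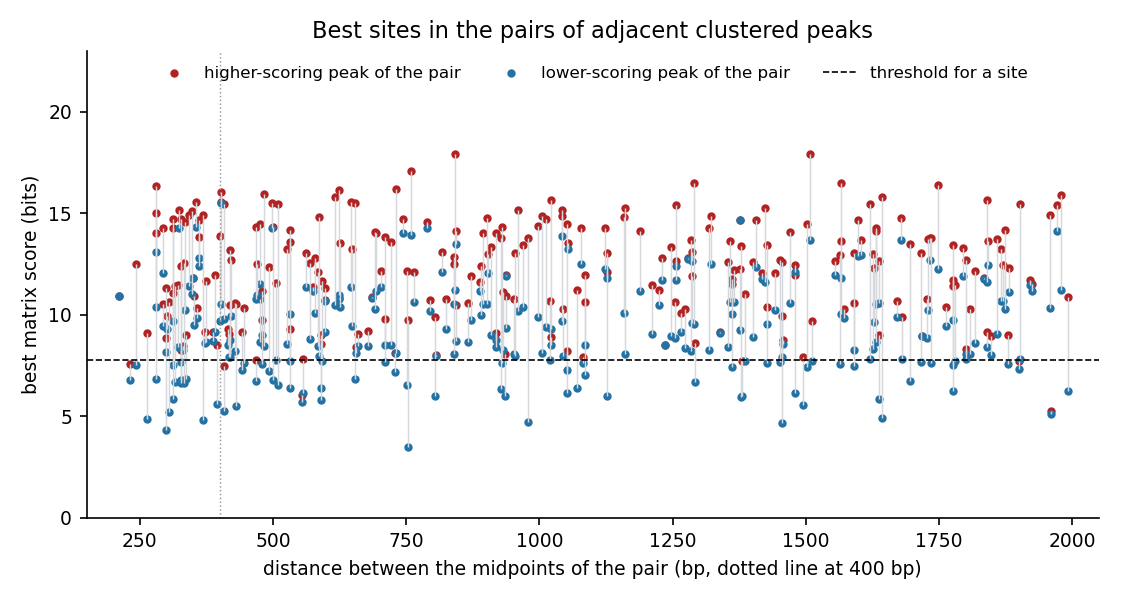
Best matrix score in bits (vertical axis) of the higher-scoring (red) and lower-scoring (blue) peak of each of the 268 adjacent pairs, joined by a grey line, against the distance between midpoints in bp. The dashed line is the threshold for a site, 7.79 bits, and the dotted line at 400 bp marks where regions cease to overlap. The peaks of each pair were sorted by score, so a gap between the medians, 12.51 and 8.88 bits, follows from the sorting.

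The next comparison asked whether a site of given strength lay inside a peak more often where another peak was close. All 59573 sites of the genome past the threshold were used, and a neighbour was a peak whose midpoint lay 400 to 2000 bp from the site. With such a neighbour, 544 of 5837 sites (9.32%) lay in a peak, and without one 3773 of 53736 (7.02%). The share with a neighbour was the higher one in all 7 ranges of score. At 7.79 to 9 bits it was 5.25% against 3.69%, at 10 to 11 bits 11.5% against 7.84%, and at 14 bits or more 60.5% (69 of 114, interval 51.4 to 69.0%) against 47.8% (380 of 795, interval 44.3 to 51.3%). At 9 to 10 bits it was 6.42% against 5.47% and at 11 to 12 bits 13.2% against 12.6%, both with overlapping intervals. Across scores, the difference was 2.03 percentage points, given as a description. The positions of peaks enter both sides of this comparison, so it is another view of the closeness described above. No interval or p is therefore given for the difference.

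**Figure D4:**
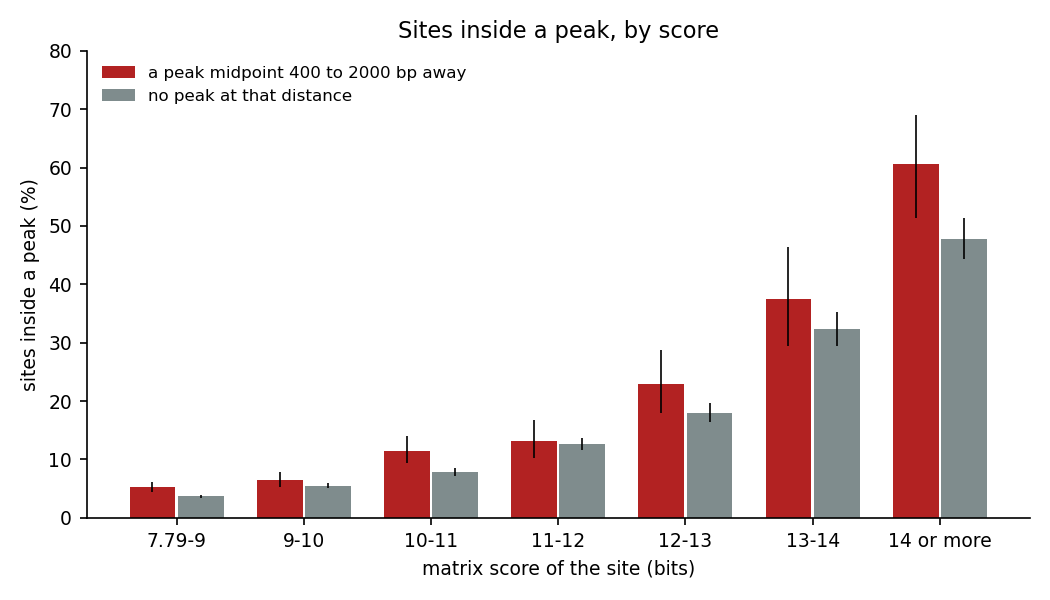
Share of sites (%) that lay inside a peak, by matrix score in bits, for sites with a peak midpoint 400 to 2000 bp away (red) and with none at that distance (grey), with 95% Wilson intervals. The red bar is the taller one in each of the 7 ranges, with 60.5% against 47.8% at 14 bits or more.

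The sequences of the pairs were compared with each other to find tandem copies. Of the 228 adjacent pairs 400 to 2000 bp apart, 8 (3.51%, interval 1.79 to 6.77%) had similar sequence by blastn at an E-value of 1e-05, against 12 of the 1424 adjacent pairs over 2000 and up to 20000 bp apart (0.843%, interval 0.483 to 1.47%). The difference passed Fisher's exact test (two-sided p = 0.0033), and without chromosome 5 it did not (2.81%, p = 0.077, an alternative chosen after the data had been seen). The test treats pairs as independent, but adjacent pairs can share a peak. This was so for similar pairs farther apart at RLP24, RLP26, RLP27 and RLP28. Similarity to any other peak of the genome that did not overlap was found for 68 clustered peaks (13.2%) and 299 other peaks (9.85%), which was not tested. The 68 include the peaks of the 8 close pairs, so these comparisons overlap.

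Windows of 60 bp around the best sites of the most alike pairs are shown to let them be compared, with the box in capitals.
URO, 3335 bp upstream, chr3:8247181-8247240: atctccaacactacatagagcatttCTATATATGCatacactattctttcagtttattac
URO, 1616 bp upstream, chr3:8248845-8248904: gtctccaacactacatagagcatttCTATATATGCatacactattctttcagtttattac
AT4G10530, 2024 bp upstream, chr4:6506529-6506588: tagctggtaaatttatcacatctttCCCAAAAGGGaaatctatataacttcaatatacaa
AT4G10530, 647 bp upstream, chr4:6507902-6507961: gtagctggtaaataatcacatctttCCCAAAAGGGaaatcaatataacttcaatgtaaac
AT5G19172, 105 bp upstream, chr5:6448827-6448886: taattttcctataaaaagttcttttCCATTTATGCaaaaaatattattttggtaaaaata
AT5G19175, 133 bp upstream, chr5:6450371-6450430: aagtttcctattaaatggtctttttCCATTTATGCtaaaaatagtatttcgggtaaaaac
At URO, a zinc finger gene, the copies were the same at 59 of the 60 bases shown, and the aligned stretch of 162 bp was 99.4% identical, so that reads from one copy can be placed on the other. Whether 1 copy alone gave rise to both peaks was not tested. Upstream of AT4G10530 the copies were 79.9% identical over an alignment of 417 bp, and the 16 bp of the best site were the same in both. At AT5G19172, annotated as a cysteine-rich protein gene, and AT5G19175 the copies were 82.4% identical over 370 bp, and each peak lay just upstream of its own gene. The remaining similar pairs lay at PUP2 and AT2G33760, IMS2 and TET12, AT1G68905 and AT1G68907, AT1G32360, and AT5G57567 and AT5G57570.

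Genes were given a window of 3000 bp upstream of the start to 1000 bp downstream of the end. A clustered peak lay in the window of 456 of 27444 protein-coding genes (1.66%), and 341 genes (1.24%) had at least 2 peaks of 1 cluster there. Any peak lay in the window of 4945 genes, of which those with a clustered peak were 9.22%.

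MIKC MADS genes had clustered peaks most often among the lists examined. Of 39 such genes, 6 (15.4%) had a clustered peak in the window, and all 6 had at least 2 peaks of 1 cluster there, while 21 had any peak. Among 39 regulators of flowering and meristems outside this family, 4 (10.3%) had a clustered peak and 17 had any peak. Of 46 IAA and ARF genes of the auxin response 4 did (8.70%, with 15 genes having any peak), and of 67 WRKY genes 4 did (5.97%, with 16). Of 116 MYB genes 1 did (0.862%, with 27), and none of 43 photosystem and light harvesting genes did (with 2). These shares stand beside 1.66% of all genes. Among genes with any peak, the share with a clustered peak was 28.6% for MADS genes and 23.5% for the regulators of flowering. It was 26.7% for IAA and ARF genes and 25% for WRKY genes. For MYB genes it was 3.70% and for photosystem and light harvesting genes 0%, beside 9.22% for all genes. The order of the lists changed with the window. By nearest gene start the share was 27.3% for MADS and 28.6% for WRKY genes. In the window of 1000 bp upstream to the gene end it was 25% for MADS and 33.3% for IAA and ARF genes. There it was 12.5% for the regulators of flowering (1 of 8) and 10.1% for all genes. The lists were chosen with earlier results of these data known, gene windows differ in length and were not matched, and the lists were not tested.

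**Figure D5:**
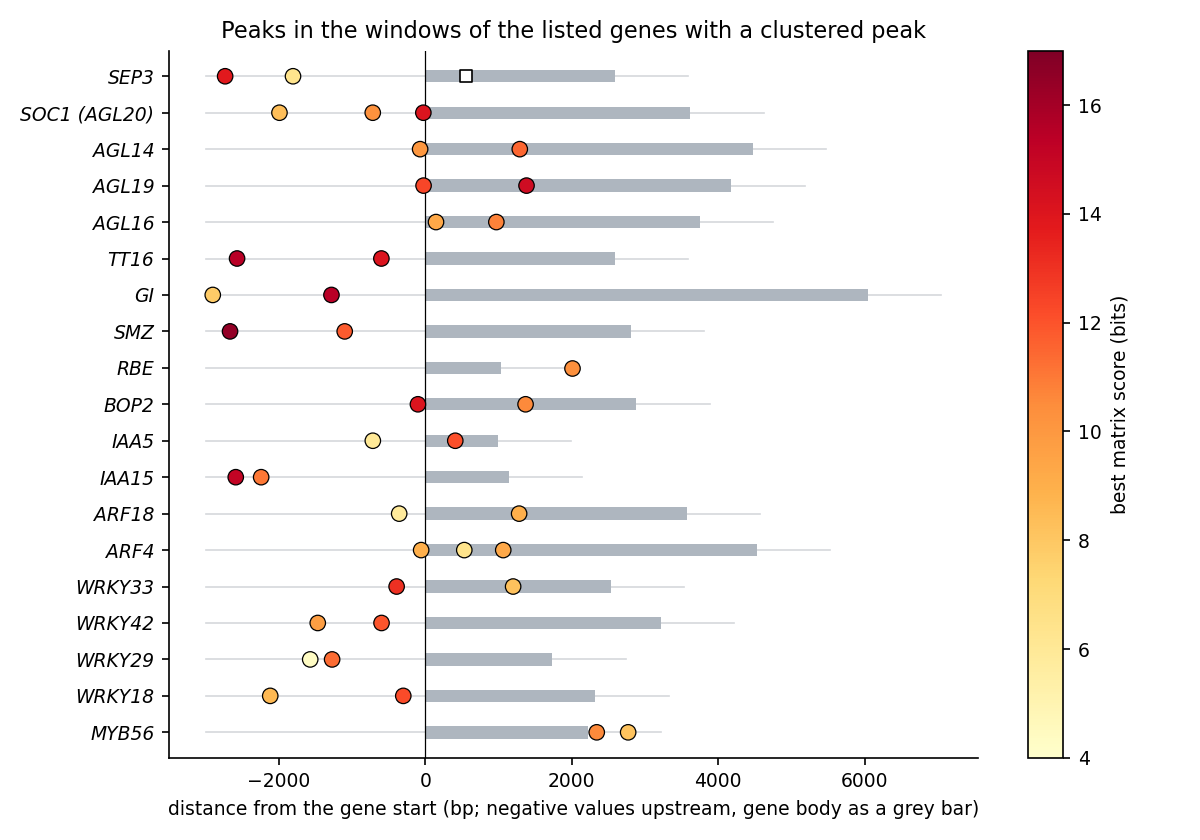
Peaks in the windows of the 19 listed genes with a clustered peak, by distance of the peak midpoint from the gene start in bp (horizontal axis, upstream to the left, gene body as a grey bar, window as a thin line). Filled circles are clustered peaks, coloured by best matrix score in bits, and the open square is another peak in the same window. Of the 39 clustered peaks, 26 lay upstream of the gene start.

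The 6 MADS genes differ in role and in the arrangement of their peaks. SOC1 (AGL20), an integrator of flowering signals, had 3 peaks upstream, at 27, 718 and 1992 bp, with 14.08, 10.26 and 8.38 bits. The strongest of the 3 lay at the gene start. SEP3 itself had a pair of clustered peaks 927 bp apart, at 1807 bp upstream with 6.37 bits and at 2734 bp upstream with 13.80 bits. The farther of these is nearer to the start of AT1G24265, and a further peak in an intron of SEP3 lay 2362 bp from the pair, just outside the rule. TT16, a Bsister gene of the seed coat, had peaks at 600 and 2571 bp upstream with 14.10 and 15.43 bits, both strong.

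The other MADS genes had peaks at or after the gene start. AGL19, a promoter of flowering, had a peak 24 bp upstream with 12.36 bits and one in an intron with 14.66 bits. AGL14, known from root and meristem development, had a peak 71 bp upstream with 10.05 bits and one in an intron with 11.51 bits. AGL16 had both peaks in exons outside the coding sequence, with 9.31 and 10.79 bits, 824 bp apart. Of the 13 clustered peaks at these genes, 9 lay upstream and 4 inside the gene.

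SMZ, an AP2-type repressor of flowering, had peaks at 1101 bp upstream with 11.79 bits and at 2667 bp upstream with 16.49 bits, and the cluster went on to a further peak of 9.54 bits. The peaks of 16.49 and 9.54 bits are nearer to the start of TON1A, a gene of microtubule organisation that lies next to SMZ, at 2271 and 980 bp upstream of it. GI, a clock-associated promoter of flowering, had peaks at 1282 bp upstream with 15.46 bits and at 2903 bp upstream with 7.81 bits, a score just past the threshold. The midpoint of the farther GI peak lay inside another gene, PAB3, in an exon outside the coding sequence. BOP2, which acts in leaf and floral patterning, had a peak 101 bp upstream with 14.08 bits and one in an intron with 10.60 bits. The intron peak is nearer to the start of AT2G41375. RBE, a petal gene, had 1 peak of a cluster in its window, beyond the end of the gene, with 10.38 bits. That peak is nearer to the start of AT5G06060. With the shorter window of 1000 bp upstream to the gene end, 1 of these 39 regulators had a clustered peak (2.56%, against 1.002% of all genes), while 5 of the 39 MADS genes did (12.8%).

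Among the auxin genes, ARF4, an auxin response factor of leaf polarity, had 3 peaks within 1121 bp, with 9.01 bits 57 bp upstream, 6.40 bits in an exon outside the coding sequence and 9.30 bits in an intron. ARF18 had 5.84 and 8.98 bits, and IAA5 had 6.02 and 12.11 bits. The 5.84-bit peak is nearer to the start of AT3G61829, and the 6.02-bit peak to that of AT1G15590. IAA15 had a pair 347 bp apart with 11.04 and 15.12 bits, which lies closer to the start of the next gene, AT1G80400.

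WRKY33, a regulator of defence against fungi, had a peak upstream with 13.06 bits and one in a coding exon with 8.25 bits. WRKY18, also of defence, had 12.18 bits at 301 bp upstream and 8.59 bits at 2118 bp upstream. WRKY42 had 11.93 and 9.76 bits at 598 and 1469 bp upstream. WRKY29 had overlapping peaks 299 bp apart, of which one held a canonical box with 11.32 bits and the other had 4.31 bits, the lowest of the 39 clustered peaks in the windows of listed genes. MYB56 had its pair beyond the end of the gene, with 10.56 and 8.20 bits. Over all 19 listed genes the scores had a median of 10.60 bits and a highest value of 16.49, and 34 of 39 peaks held a site.

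The clusters of 3 or 4 peaks were 18 in number and held 55 peaks. In 11 of the 18, every peak held a site. Peaks with no site made up 14.5% of the 55 and 15.5% of all clustered peaks. No expectation for whole clusters was computed. The single cluster of 4 lay at VPS24.2, an ESCRT gene of membrane traffic, and its neighbour scpl48, a serine carboxypeptidase-like gene, with 9.06, 11.48, 7.70 and 5.99 bits along the chromosome. Only the first 2 of its peaks passed the threshold. The best scores over the 55 peaks had a median of 9.87 bits, and 7 of the 55 peaks (12.7%) held a canonical box.

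The most compact triples varied widely in strength. The cluster upstream of SPT had 14.26, 15.51 and 16.04 bits, the last with a canonical box, at distances of 498 and 402 bp between midpoints. At AT1G73390, a BRO1-like domain gene, the peaks had 12.51, 14.26 and 15.15 bits, and at ABCC1, a vacuolar transporter, 9.69, 13.87 and 14.86 bits. At the other end, XRCC2, a DNA repair gene, had 8.63, 9.15 and 7.29 bits at its 3′ end, and AT3G27325 had 5.61, 8.53 and 8.51 bits around its start. EXGT-A3, an enzyme of xyloglucan in the cell wall, had 8.11 and 8.40 bits upstream and 12.58 bits in an intron. The triple between IAGLU, which conjugates auxin, and CLA1, the entry enzyme of plastid isoprenoid synthesis, had 6.02, 9.87 and 14.37 bits. Triples of strong sites and triples of weak ones both occurred, and 7 of the 18 clusters had at least 1 peak with no site past the threshold.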

How the data were processed

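Regions bound by SEP3-AG(IAP1) were taken from the list of positions that the authors deposited, which has no other unit. The authors mapped reads with Bowtie2 to TAIR10 without organelle genomes, removed duplicates with SAMtools, called peaks in each of 3 replicates with MACS2 against input DNA, joined replicates with MSPC, split regions with several maxima and gave every peak a width of 400 bp centred on its maximum. The sources used here do not give their versions. Splitting and joining set how close peaks can lie, and the choice of stringency sets which sites appear. All peaks ended within the reference chromosomes, and 64.5% of 595 canonical boxes lay within 25 bp of a peak centre.

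The 16 bp palindromic matrix was fitted by expectation maximisation (30 iterations). Origin was assigned by midpoint, promoters (1000 bp upstream) first. Expected shares were computed in closed form. Adjusted p-values are from linear models with cluster-robust errors (statsmodels 0.14.6), and similarity from blastn 2.17.0. Scripts ran in Python 3.11.15 with pandas 2.3.3, scipy 1.17.1, numpy 2.4.6 and matplotlib 3.10.9, and the steps were tested on simulated data.

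The members and gene lists were chosen with earlier results of these data known. Clusters named are the 10 with most peaks (ties by shorter span), those with a clustered peak in the window of a listed gene, and the 5 pairs with the highest summed scores. The pairs with similar sequence, the CArG scores by bin and the placement by score were chosen after their values were seen. Alternatives were other distances, thresholds, promoter and gene windows, 1 peak per cluster, no overlapping peaks, and leaving out each chromosome.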

Additional observations from a re-analysis of the deposited data

How the results depend on the processing

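No paired analysis was possible because the 3 replicates are combined in 1 list. The share of clustered peaks was 7.83% with a limit of 1000 bp, 31.25% with 5000 bp and 12.5% when midpoints under 400 bp apart were first joined to 1 region, which left 440 of 3512 regions with a neighbour. The shift with distance follows from the limit itself. Of the comparisons with other peaks, GC content missed the threshold with 5000 bp (-0.489 points), without chromosome 2 (-0.794 points) and without chromosome 5 (-0.858 points). Others passed it under 1 alternative each, the near-canonical box with 5000 bp (4.13 points), the intron share with 1000 bp (-6.66 points) and the promoter share with promoters of 2000 bp (7.28 points), and the cause was not tested. The share of genes with a clustered peak was 1.002% with a window of 1000 bp upstream to the gene end and 1.16% by nearest gene start. Similar sequence in close pairs missed the threshold without chromosome 5 (2.81%). The other 113 of 125 alternatives kept the direction of called results and their side of the threshold, and shares with no test stayed within the Wilson interval of the main share. The 2 other expected shares, 11.1% and 10.8%, lay within an interval of the same width around 10.2%. The list holds no reads, so depth sets which sites appear but cannot be weighed here.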
